A study of Mus musculus with 30 samples.

Results

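Growth of CT-26 tumors from 100 to 400 mm3 was described from the 4 tumors labelled 100 mm3 and the 4 labelled 400 mm3, 8 of the 30 RNA-seq libraries of the study, across all genes of the deposited count table. CT-26 is a carcinoma cell line of the mouse colon, here grown under the flank skin of BALB/c females. The 100 mm3 tumors measured 103.33, 106.18, 136.03 and 145.86 mm3 at harvest and the 400 mm3 tumors 405.58, 400.47, 403.89 and 464.68 mm3, and values of single tumors are given below in these orders. The other libraries are CT-26 tumors of 800 mm3, Colon 26 tumors of the same 3 sizes and cultures of both cell lines, which served here only for reference. The labels' general text mentions antibody dosing, but none names an antibody for any of these samples, so the tumors were taken as untreated, which could not be checked. The labels do not say whether the 4 tumors of a size came from separate mice, so p-values measure only the spread between these samples. Sequenced poly-A RNA of a whole tumor mixes cancer cells with host cells, and fewer cells of a type cannot be told apart from less RNA per cell.

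A subcutaneous tumor grows among skin, fat and the muscle of the body wall, and pieces of these tissues can be cut out with it. As a tumor enlarges, parts of it can become short of oxygen, and cells then switch on genes through the HIF transcription factors, among them genes of glucose uptake and glycolysis. Immune cells enter throughout, and neutrophils, monocytes, macrophages and mast cells each carry characteristic transcripts.

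The total counts on genes were 22923606 to 30584263 per library in the 8 tumors. Muscle transcripts marked 3 of them most strongly. The summed level of 30 skeletal muscle genes was 154, 634, 180 and 1170 CPM (counts scaled to library size with TMM normalisation) at 100 mm3 and 122, 112, 135 and 703 CPM at 400 mm3. The tumors of 106.18, 145.86 and 464.68 mm3 thus stood above the others, while the CT-26 cultures, without host tissue, were at 175 to 185 CPM. Here and below, CPM of cultures were scaled to total counts without TMM, unlike those of tumors. The cultures did not express the list as a set. Eno3, a member, had up to 4402 counts in a culture, and Acta1 and Ckm at most 4. Acta1, the actin of skeletal muscle fibres, was at 0.329, 72.7, 9.27 and 124 CPM at 100 mm3 and at 0.232, 0.231, 0.422 and 101 CPM at 400 mm3. Ckm, the creatine kinase of muscle, followed with 0.246, 36.5, 5.22 and 83.1 CPM and then 0.271, 0.297, 0.307 and 33.6 CPM.

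Skin was much less visible. Of 24 genes of skin epithelium, 12 had at most 3 counts in every one of the 8 tumors. The summed level was 97.3 to 145 CPM at 100 mm3 and 105 to 136 CPM at 400 mm3, and 38.2 to 40.6 CPM in the cultures. The sum does not stand for skin alone. Its member Lgals7 had up to 3950 counts at 100 mm3, 3346 at 400 mm3 and 819 in a culture, while Krt10 had at most 107 in a tumor. Krt14, a keratin of basal epidermis, was at or below 0.0763 CPM in 7 tumors and at 2.48 CPM in that of 464.68 mm3. The tumor of 464.68 mm3 was also highest for 15 adipocyte genes, with 127 CPM against 31.1 to 47.6 CPM in the other 400 mm3 tumors, and the tumor of 145.86 mm3 was highest at 100 mm3, with 110 CPM against 35.5 to 61.4 CPM. Adipoq, the adiponectin gene of fat cells, was at 1.43 CPM in the tumor of 145.86 mm3 and 2.39 CPM in that of 464.68 mm3, and at most 0.264 CPM elsewhere.

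**Figure D1:**
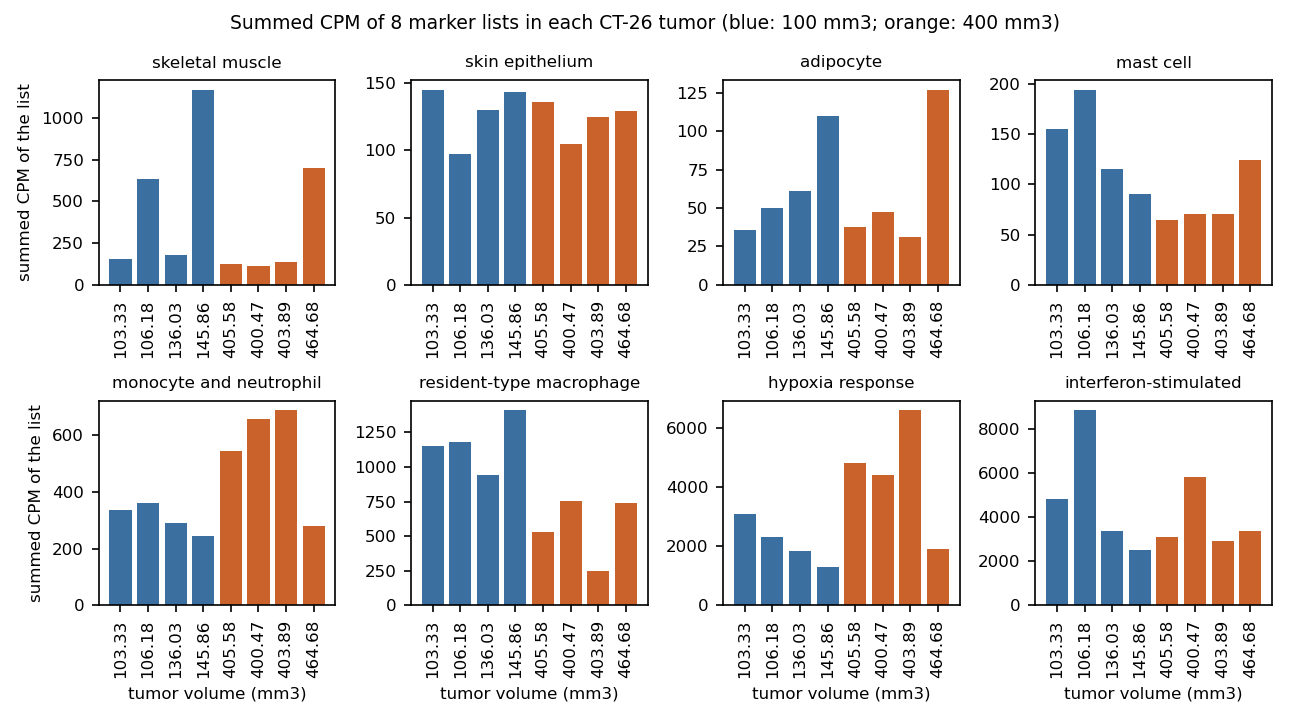
Summed CPM (vertical axes, from 0) of 8 gene lists in each of the 8 CT-26 tumors, ordered on the horizontal axes by size class and labelled with their volume in mm3. Muscle genes sum to 634, 1170 and 703 CPM in the tumors of 106.18, 145.86 and 464.68 mm3 and to 112 to 180 CPM in the other 5. The monocyte and neutrophil list summed to 1140 to 1150 CPM in the CT-26 cultures (scaled without TMM), so it does not stand for host cells alone. The skin epithelium list summed to 38.2 to 40.6 CPM there, and its member Lgals7 was expressed in tumors and cultures, so it does not stand for skin alone.

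The comparison asked which genes differed between the 2 sizes. Levels at 400 mm3 were higher for genes of neutrophils and their chemokines, of the oxygen response and for Aldh3a1, and lower for macrophage genes such as Mrc1 and Folr2, for mast cell genes and for single genes such as Tsc22d3 and Ccn2, with calls that depended on the tool and on single tumors. In edgeR's quasi-likelihood test of 15104 genes no gene (0, or 0.0%) reached an adjusted p of at most 0.1 with a log2 fold change of at least 1 in either direction. The smallest adjusted p was 0.109, shared by 184 genes, and 3356 genes (22.2%) had an unadjusted p under 0.05, 1650 of them higher (10.9%) and 1706 lower (11.3%) at 400 mm3. DESeq2, the tool named in the submitters' processing notes, called 150 of 13784 genes (1.09%) at the same thresholds, 79 higher (0.573%) and 71 lower (0.515%). Of these 150 genes, 74 had 4 tumors of one size all above the 4 of the other, 31 higher and 43 lower, which held for 12.9% of all genes tested by edgeR (6.28% higher and 6.64% lower). The median log2 fold change over all genes was -0.02.

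The count turned on the tumor of 464.68 mm3. Without it, edgeR called 335 of 15394 genes (2.18%), 183 higher (1.19%) and 152 lower (0.987%), with a smallest adjusted p of 0.00504, and DESeq2 called 425 (2.81%), 185 higher (1.22%) and 240 lower (1.59%), of which 136 were among its 150 (90.7% of the 150 and 32% of the 425). Without the tumor of 106.18 mm3 edgeR called 144 genes (0.942%), and without any other single tumor it called 0. DESeq2 called 50 genes without the tumor of 145.86 mm3, 50 without that of 403.89 mm3 and 80 without that of 405.58 mm3. With the 3 tumors of high muscle level left out, which leaves 2 tumors against 3, edgeR called 60 genes and DESeq2 181 (1.43%), 123 higher (0.975%) and 58 lower (0.46%), of which 84 were among its 150 (56% of the 150 and 46.4% of the 181). That fit was not free of muscle transcripts, as it kept the tumor of 136.03 mm3. In it DESeq2 called 3 of the 7 muscle genes it tested as lower, among them Acta1 (log2 fold change -4.01, DESeq2 adjusted p = 0.00709). Below, log2 fold changes of 400 over 100 mm3 are those of edgeR over the 8 tumors. SE is an approximate standard error, the absolute log2 fold change divided by the square root of edgeR's F statistic. Adjusted p-values are those of DESeq2 unless edgeR is named.

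**Figure D2:**
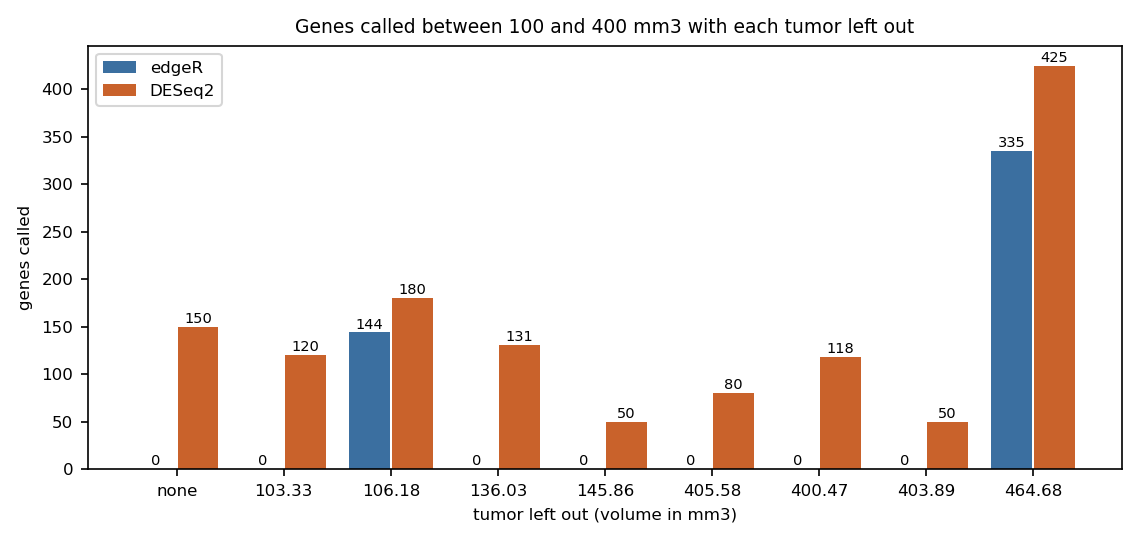
Number of genes called between 100 and 400 mm3 (vertical axis, from 0) by edgeR (blue) and DESeq2 (orange) with all 8 tumors (none) and with each tumor left out, labelled by its volume in mm3. edgeR called 335 genes without the tumor of 464.68 mm3, 144 without that of 106.18 mm3 and 0 otherwise, and DESeq2 called 50 to 425.

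Leaving out the tumor of 464.68 mm3 also put muscle genes among the calls. The median log2 fold change of the 29 muscle genes tested was -1.42 with all 8 tumors, with no member called by DESeq2 or edgeR. Without that tumor it was -5.52, or -5.22 with the 10 genes that had at most 3 counts in each of the other 400 mm3 tumors set to their bound, and edgeR called 19 and DESeq2 26 of the 29 as lower. The 6 skin genes tested had a median of -0.29 and no call in any of these fits. Of the 5 adipocyte genes that DESeq2 tested with all 8 tumors it called Plin4, a lipid droplet protein that the CT-26 cultures also expressed (2.55 FPKM), with 3.94, 5.65, 2.17 and 3.33 CPM at 100 mm3 and 5.45, 7.99, 10.9 and 8.52 CPM at 400 mm3 (log2 fold change 1.12 ± 0.30 SE, DESeq2 adjusted p = 0.012). Without the tumor of 464.68 mm3 the adipocyte median went from 0.11 to -0.49 and Car3, a carbonic anhydrase of fat and muscle, was called lower by both tools. Car3 was at 0.37, 14, 3.32 and 27.2 CPM and then at 0.0774, 0.363, 0 and 37 CPM. The part of muscle or fat from single tumors in the other differences was not tested.

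The list of neutrophil genes and the chemokines that attract these cells had the highest median of the lists. Of the 22 genes in the list of monocytes and neutrophils 17 were tested, with a median log2 fold change of 1.54, and DESeq2 called 9 as higher and 1 as lower (0.573% and 0.515% of all genes). S100a9, a calcium-binding protein abundant in neutrophils (chr3:90692632-90695721), was at 1.11, 0.931, 1.14 and 0.577 CPM at 100 mm3 and at 17.3, 19.5, 31.9 and 2.35 CPM at 400 mm3. All 4 larger tumors lay above the smaller ones, but the tumor of 464.68 mm3 only narrowly so. This was the largest change among the genes named by the rule, 4.24 ± 0.69 SE on the log2 scale (DESeq2 adjusted p = 3.71e-06). Its partner S100a8 (chr3:90668978-90670035) was at 0.739, 0.578, 0.343 and 0.102 CPM and then at 4.72, 5.91, 10.7 and 0.882 CPM, a log2 fold change of 3.66 ± 0.76 SE (DESeq2 adjusted p = 2.75e-05). The cultures had at most 2 counts of either gene. Other members were expressed in the cultures, so the list does not stand for host cells alone. Its summed level was 1140 to 1150 CPM in the cultures, 246 to 362 CPM at 100 mm3 and 281 to 688 CPM at 400 mm3. Ptgs2, one of the 9 higher calls, had up to 31876 counts in a culture and up to 11284 in a 400 mm3 tumor. Cxcl1, another of them, had up to 161 counts in a culture.

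Cxcr2, the chemokine receptor of neutrophils, lay between 0.229 and 0.257 CPM at 100 mm3 and at 1.39, 2.74, 1.23 and 0.42 CPM at 400 mm3 (log2 fold change 2.56 ± 0.52 SE). Il1r2, a decoy receptor for interleukin 1, was at 0.657, 1.22, 1.56 and 1.32 CPM and then at 4.37, 3.67, 4.45 and 1.39 CPM (1.54 ± 0.40 SE). Among the ligands, Cxcl1 was at 8.67, 5.04, 3.66 and 2.96 CPM at 100 mm3 and at 39.7, 58.3, 41.5 and 2.35 CPM at 400 mm3, and Cxcl5 at 1.81, 3.53, 0.724 and 0.611 CPM and then at 8.51, 16.1, 6.82 and 2.44 CPM. Cxcl1, Cxcl5 and Il1b, the gene of interleukin 1 beta, were thus higher in 3 of the 4 larger tumors, and in that of 464.68 mm3 they lay within or below the range of the smaller ones. Without that tumor the list had a median log2 fold change of 1.94, with 12 of 18 genes called higher by edgeR (1.19% of all genes). Without the 3 tumors of high muscle level DESeq2 still called 9 of 15 as higher (0.975% of all genes). Ccr2, the chemokine receptor of inflammatory monocytes, went the other way, with 61.4, 107, 85.3 and 69.5 CPM at 100 mm3 and 37.8, 37.2, 20 and 63.4 CPM at 400 mm3 (log2 fold change -1.03 ± 0.31 SE, DESeq2 adjusted p = 0.0178).

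**Figure D3:**
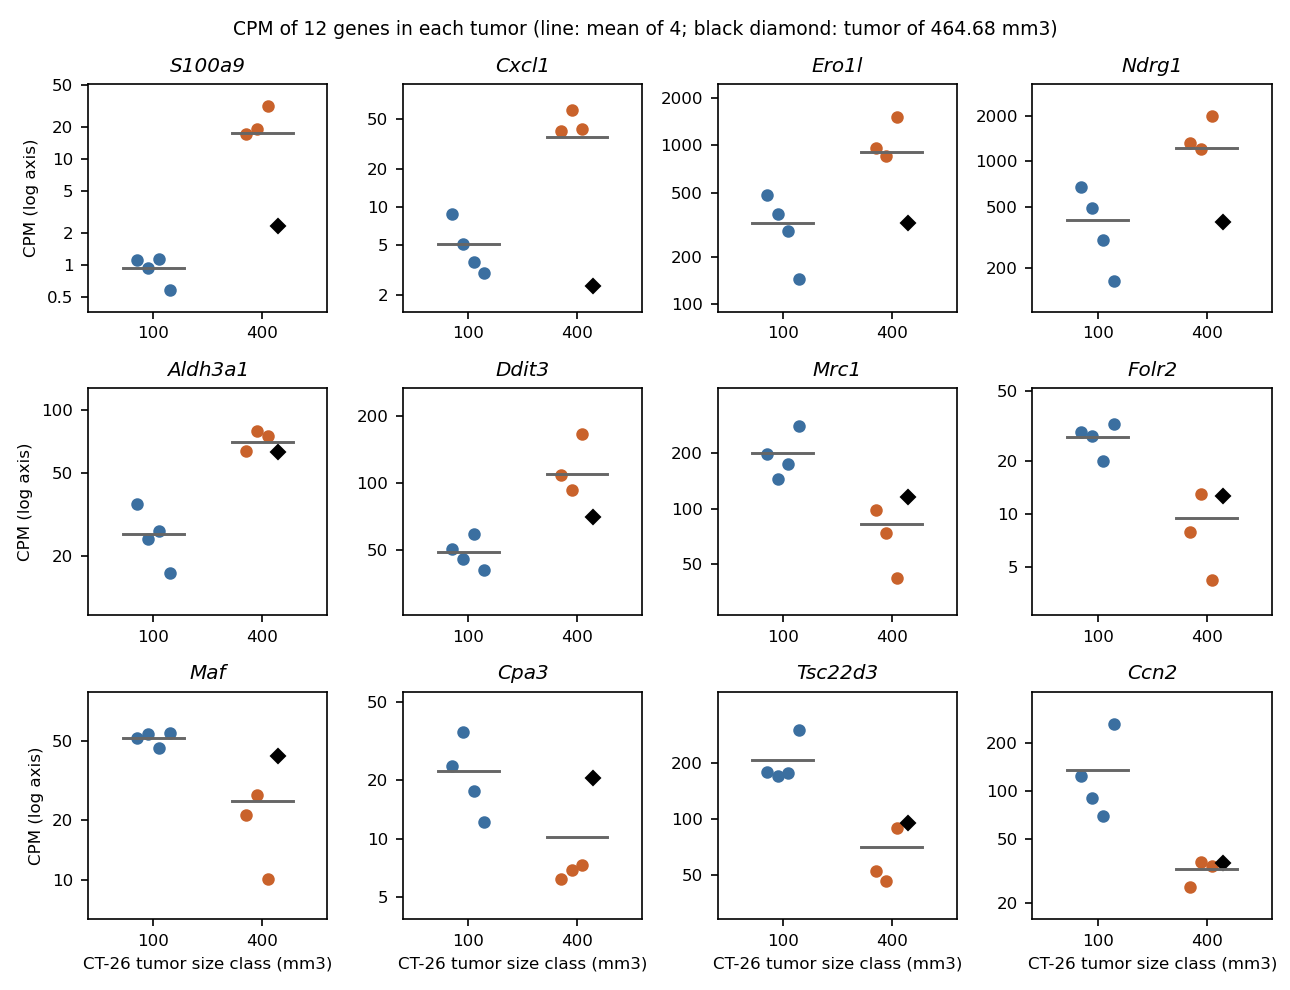
CPM (vertical axes, log scale) of 12 genes in the CT-26 tumors of 100 mm3 (blue) and 400 mm3 (orange, with the tumor of 464.68 mm3 as a black diamond), with a line at the mean of the 4 tumors. S100a9, Aldh3a1 and Ddit3 do not overlap between the sizes, while for Cxcl1, Ero1l, Ndrg1 and Cpa3 the tumor of 464.68 mm3 lies among or below the smaller tumors.

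Genes of the oxygen response were higher in 3 of the 4 larger tumors. The summed level of 24 hypoxia response genes was 3090, 2330, 1830 and 1300 CPM at 100 mm3 and 4820, 4430, 6610 and 1920 CPM at 400 mm3. The median log2 fold change of the 24 was 0.80, with 18 higher and 6 lower. DESeq2 called 3 as higher (Ero1l, Ndrg1 and Egln3), beside 0.573% of all genes. Ero1l, an oxidase of the endoplasmic reticulum also known as Ero1a, was at 489, 369, 290 and 144 CPM and then at 961, 853, 1510 and 327 CPM (log2 fold change 1.5 ± 0.47 SE, DESeq2 adjusted p = 0.0404). Ndrg1, a stress-responsive gene induced by hypoxia, was at 680, 491, 305 and 165 CPM and then at 1330, 1200, 2000 and 403 CPM (1.59 ± 0.52 SE, DESeq2 adjusted p = 0.0485). Egln3, one of the oxygen-sensing prolyl hydroxylases that mark HIF for degradation, was at 3.82, 3.66, 2.52 and 1.36 CPM and then at 6.54, 6.18, 7.13 and 2.86 CPM (1.0 ± 0.37 SE, DESeq2 adjusted p = 0.0682).

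For each of these genes, the values of the tumor of 464.68 mm3 fell within the range of the 100 mm3 tumors, and the other 3 lay above it. Without that tumor edgeR called 11 of the 24 as higher (1.19% of all genes) and DESeq2 12 (1.22%), with none lower. The median was then 1.03. Vegfa, the vascular growth factor, was at 167, 140, 139 and 88.1 CPM at 100 mm3 and at 261, 256, 317 and 112 CPM at 400 mm3, below the fold threshold at 0.83 ± 0.30 SE. The genes of glycolysis shifted less. Of 17 tested 16 were higher, with a median of 0.47 and no call with all 8 tumors. Slc2a1, the glucose transporter GLUT1, was at 258, 184, 117 and 86.3 CPM and then at 415, 404, 553 and 126 CPM (log2 fold change 1.22 ± 0.46 SE, DESeq2 adjusted p = 0.131), and Hk1, a hexokinase, differed by 0.41 ± 0.18 SE. The CT-26 cultures, with no host cells, had a summed level of hypoxia genes of 4310 to 4390 CPM.

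The promoters of 2 of the 3 called genes are shown because the core letters of the HIF-binding element, ACGTG on either strand, occur in both. Each is the 250 bases before the RefSeq start on GRCm38.p6, 5′ to 3′ on the strand of the gene, with the element in capitals. That of Egln3 is chr12:54203875-54204124 (minus strand), with the element at position -229 from the start, and that of Ero1l is chr14:45318573-45318822 (minus strand), with the element at position -63.
Egln3: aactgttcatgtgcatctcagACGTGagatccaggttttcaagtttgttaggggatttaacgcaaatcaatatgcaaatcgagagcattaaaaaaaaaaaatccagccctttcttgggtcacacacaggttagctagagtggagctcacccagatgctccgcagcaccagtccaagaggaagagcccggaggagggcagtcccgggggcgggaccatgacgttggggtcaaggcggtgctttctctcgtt
Ero1l: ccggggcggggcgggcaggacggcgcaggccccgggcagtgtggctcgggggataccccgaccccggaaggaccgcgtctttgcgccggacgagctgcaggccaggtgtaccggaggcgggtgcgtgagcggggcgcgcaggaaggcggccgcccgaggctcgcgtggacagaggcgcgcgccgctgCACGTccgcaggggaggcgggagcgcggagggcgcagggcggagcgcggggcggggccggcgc
The element was present before at least 1 start of 12 of the 20 hypoxia list genes with an entry (60%) and of 18.5% of all 27025 genes in the RefSeq set. The list was chosen from known HIF targets, so this share describes the list. Ndrg1 had no entry.

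A few genes of the aryl hydrocarbon receptor pathway, which senses dioxins and related ligands, differed between the sizes. Aldh3a1, an aldehyde dehydrogenase and a classical target of that receptor (chr11:61207537-61218421), was at 35.2, 23.9, 26.2 and 16.5 CPM at 100 mm3 and at 63.5, 79.6, 75.4 and 62.9 CPM at 400 mm3. The tumors of the 2 sizes were well apart, including that of 464.68 mm3, with a log2 fold change of 1.47 ± 0.20 SE (DESeq2 adjusted p = 3.21e-08). The receptor gene Ahr itself was at 46.8, 55.1, 47.9 and 40.2 CPM and then at 89.2, 94.3, 92.1 and 65.7 CPM, again without overlap (0.85 ± 0.13 SE, below the fold threshold, DESeq2 adjusted p = 2.75e-05). In a list of 9 such genes put together after these values were seen, the 6 tested had log2 fold changes above 0, with a median of 1.06. DESeq2 called 3 of them as higher (Aldh3a1, Ugt1a6a and Nqo1), beside 0.573% of all genes. Ugt1a6a, a glucuronosyltransferase, shares exons with other Ugt1a genes, so its reads cannot be assigned to it alone. Nqo1, a quinone reductase that is also a target of Nrf2, rested on the tumor of 464.68 mm3, with 8.57 CPM there against 1.12 to 3.07 CPM in the other large tumors, and was not called without it. Of the classical targets in the cytochrome P450 family, Cyp1a1 and Cyp1a2 were too low to be tested. Cyp1b1 was at 1.07, 2.41, 1.87 and 2.48 CPM and then at 0.851, 9.48, 0.192 and 6.26 CPM, with 2 of the larger tumors below all smaller ones (log2 fold change 1.1 ± 0.90 SE, DESeq2 adjusted p = 0.535). Tiparp, another target, differed by 0.83 ± 0.25 SE, below the fold threshold.

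Of the genes of the unfolded protein and amino acid stress response, DESeq2 called only Ddit3 and Ppp1r15a as higher, 2 of 18 tested (0.573% of all genes). The list had a median log2 fold change of 0.05. Ddit3, the transcription factor CHOP, was at 50.9, 45.9, 59.2 and 40.8 CPM and then at 109, 93.2, 167 and 70.5 CPM (log2 fold change 1.16 ± 0.24 SE, DESeq2 adjusted p = 0.000422). Ppp1r15a, also known as GADD34, which reverses the block of translation in stressed cells, was at 46.3, 36.1, 58.1 and 41.0 CPM and then at 106, 89.7, 160 and 60.1 CPM (1.20 ± 0.28 SE, DESeq2 adjusted p = 0.00115). Neither overlapped between the sizes. All 12 genes of the Nrf2 antioxidant response were higher, with a median of only 0.22.

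Of 19 macrophage genes tested, 17 had a log2 fold change below 0, with a median of -0.70. DESeq2 called 3 as lower (Mrc1, Folr2 and Maf) and 1 as higher (Gpnmb), beside 0.515% and 0.573% of all genes. Mrc1, the mannose receptor CD206, was at 199, 145, 175 and 282 CPM at 100 mm3 and at 98.3, 73.5, 42.0 and 116 CPM at 400 mm3 (log2 fold change -1.28 ± 0.31 SE, DESeq2 adjusted p = 0.00173). Folr2, folate receptor beta of tissue macrophages, was at 29.3, 27.8, 20 and 32.5 CPM and then at 7.89, 13, 4.22 and 12.6 CPM (-1.54 ± 0.33 SE, DESeq2 adjusted p = 0.000416). Maf, a transcription factor of the same cells, was at 52.1, 54.7, 46.3 and 55.4 CPM and then at 21.2, 27, 10.2 and 42.3 CPM (-1.05 ± 0.34 SE, DESeq2 adjusted p = 0.0266).

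For all 3 genes every larger tumor lay below every smaller one, the tumor of 464.68 mm3 included. The 3 chains of complement C1q showed the same order and were not called. C1qa was at 310 to 466 CPM at 100 mm3 and at 53.7 to 263 CPM at 400 mm3 (log2 fold change -0.93 ± 0.41 SE), with C1qb at -0.88 ± 0.44 SE and C1qc at -0.86 ± 0.43 SE. The tumor of 403.89 mm3 was the lowest for each of these genes. Gpnmb, a glycoprotein of lipid-laden macrophages, was at 43.9, 53.6, 43.7 and 25.6 CPM and then at 84.6, 94.9, 128 and 65.9 CPM (1.16 ± 0.25 SE, DESeq2 adjusted p = 0.000708). The CT-26 cultures themselves expressed Gpnmb at 264 FPKM, so it is no marker of host cells alone here. The same holds for Spp1, the osteopontin gene and the other member above 0 (0.37 ± 0.14 SE), with 2400 FPKM in culture. Msr1, a scavenger receptor of macrophages, differed by -0.78 ± 0.28 SE without overlap and was not called.

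A further list of 20 genes of resident-type macrophages was put together after these values were seen and holds Mrc1, Folr2 and Maf again, so it is no separate evidence. DESeq2 called 7 of the 20 as lower (0.515% of all genes), those 3 included, and the median was -1.01. Among the others was Stab1, a scavenger receptor, at 188, 222, 192 and 301 CPM and then 111, 114, 36.5 and 123 CPM. The summed level of the list was 945 to 1410 CPM at 100 mm3 and 247 to 755 CPM at 400 mm3, and 2.66 to 3.55 CPM in the cultures. Ccl12, a monocyte chemokine, was at 43.9 to 56.1 CPM and then at 12.7 to 32.6 CPM (log2 fold change -1.18 ± 0.24 SE), and Ms4a4a, a membrane protein of the same cells, at 6.35 to 11.7 CPM and then at 2.22 to 6.08 CPM (-1.21 ± 0.30 SE).

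Mast cell genes were lower in 3 of the 4 larger tumors. The summed level of 9 genes was 155, 194, 115 and 90.3 CPM at 100 mm3 and 64.8, 70.5, 70.7 and 124 CPM at 400 mm3. The list had a median log2 fold change of -0.99 with 8 of 9 lower. DESeq2 called Mcpt4, a mast cell protease, and Cpa3, carboxypeptidase A3, as lower, beside 0.515% of all genes. Cpa3 was at 23.5, 35.2, 17.5 and 12.1 CPM and then at 6.19, 6.94, 7.28 and 20.5 CPM (-1.11 ± 0.45 SE, DESeq2 adjusted p = 0.0661), and Mcpt4 was at 20.4, 29.6, 12.8 and 9.95 CPM and then at 4.49, 6.08, 5.48 and 14.2 CPM (-1.27 ± 0.44 SE, DESeq2 adjusted p = 0.0321). In the tumor of 464.68 mm3, which also had high muscle and fat levels, both lay within the range of the smaller tumors. Without it edgeR called 4 of the 9 as lower, and without the 3 tumors of high muscle level DESeq2 called 5 of 8.

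The summed levels of lymphocyte and interferon genes overlapped between the sizes. The T cell list had a median log2 fold change of -0.07, that of regulatory T cells and checkpoints -0.06 and the list of cytotoxic and NK cells -0.30, with Xcl1, a chemokine of those cells, as the one call (0.78, 2.95, 2.14 and 1.80 CPM, then 0.774, 0.429, 0.0766 and 1.26 CPM, DESeq2 adjusted p = 0.0939). Without the tumor of 106.18 mm3, the highest of the small tumors for these cells, the 3 medians were 0.52, 0.18 and 0.42 by edgeR, so their sign rests on that tumor. Foxp3, the transcription factor of regulatory T cells, was at 1.35 to 2.46 CPM and then at 0.766 to 1.26 CPM, without overlap but below the fold threshold (-0.87 ± 0.26 SE). All 27 interferon-stimulated genes had a log2 fold change below 0, with a median of -0.44, but the median was -0.09 without the tumor of 106.18 mm3 and -0.07 by DESeq2 without the 3 tumors of high muscle level. Their summed level was 4800, 8840, 3370 and 2490 CPM at 100 mm3 and 3100, 5840, 2900 and 3390 CPM at 400 mm3, so the tumors of 106.18 and 400.47 mm3 were the highest of their sizes and the sizes overlapped. DESeq2 called Cxcl10 and Cxcl11, chemokines that attract T cells, as lower (0.515% of all genes). Cxcl10 was at 75.8, 130, 57.4 and 48.0 CPM and then at 32.4, 58.9, 26.2 and 34.2 CPM (-1.03 ± 0.34 SE, DESeq2 adjusted p = 0.0301), and Cxcl11 differed by -1.11 ± 0.43 SE. Without the tumor of 464.68 mm3 neither was called (DESeq2 adjusted p = 0.159 and 0.238), although the log2 fold changes by DESeq2 were still -0.98 and -1.04.

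Tumor cell programs of growth differed little. The 20 genes of mitosis had a median log2 fold change of -0.04, with Mki67, the proliferation antigen, at 0.07 ± 0.12 SE and Top2a, a topoisomerase of dividing cells, at -0.09 ± 0.11 SE, and the 20 of S phase and replication -0.03, and the lists of cholesterol synthesis and p53 targets had 0.11 and -0.02. The lists of MHC, complement, B and plasma cells, dendritic cells, endothelium, lymphatic endothelium, pericytes, fibroblasts, matrix proteases, epithelial and mesenchymal state, and Wnt had no call by DESeq2 or edgeR with all 8 tumors, with medians between -0.38 and 0.21. Without the tumor of 106.18 mm3 the medians of MHC and complement were 0.39 and 0.41, and those of B and plasma cells (0.15), dendritic cells (0.03) and matrix proteases (-0.11) had the other sign. The erythroid list (-0.54) and the Schwann cell list (0.22) had none either. Dcn, the matrix proteoglycan decorin, was higher in 3 of the larger tumors, with 89.6, 197, 192 and 212 CPM and then 375, 372, 376 and 188 CPM (0.93 ± 0.30 SE, below the fold threshold).

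**Figure D4:**
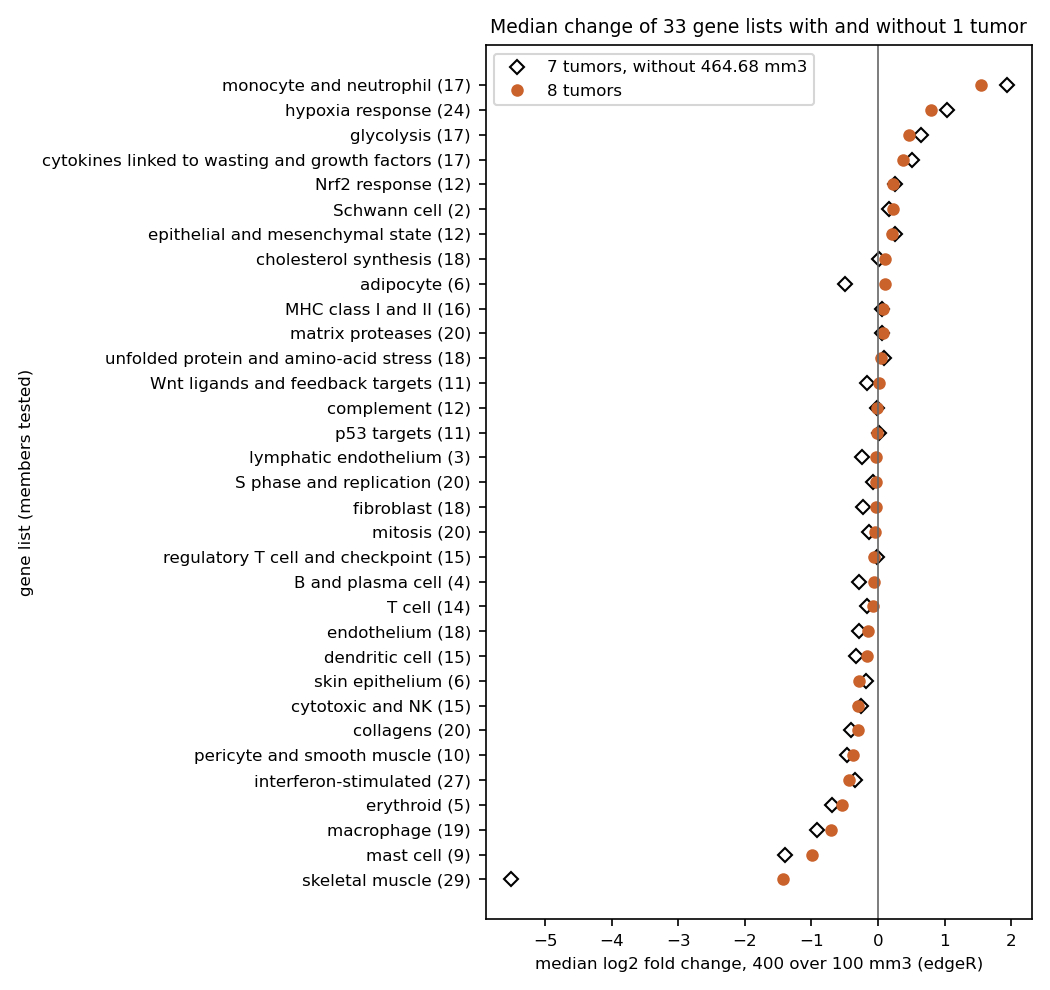
Median log2 fold change of 400 over 100 mm3 by edgeR (horizontal axis) over the tested members of 33 gene lists (vertical axis, number tested in brackets), with all 8 tumors (orange) and without that of 464.68 mm3 (open diamonds). The monocyte and neutrophil list is highest at 1.54 and moves to 1.94, and the skeletal muscle list is lowest at -1.42 and moves to -5.52.

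In the matrix and growth factor lists single genes stood out. Col10a1, a collagen of growth plate cartilage, was at 4.11, 4.36, 25.5 and 37.1 CPM at 100 mm3 and at 2.67, 1.26, 0.383 and 3.40 CPM at 400 mm3. It was DESeq2's 1 call among the 19 collagens it tested (log2 fold change -3.21 ± 0.87 SE, DESeq2 adjusted p = 0.0172), and the smaller tumors themselves spanned a wide range. Ccn2, the matricellular protein CTGF, was at 124, 90.2, 70.1 and 262 CPM and then at 25.2, 36.0, 33.7 and 35.4 CPM (-2.07 ± 0.38 SE, DESeq2 adjusted p = 0.000559). In a list of 10 YAP and TEAD targets that holds Ccn2, made after values were seen, the median was 0.19 and Ccn2 was DESeq2's 1 call. Thbs2, a thrombospondin, was at 199, 293, 185 and 206 CPM and then at 525, 448, 583 and 324 CPM (1.09 ± 0.20 SE). Among cytokines linked to wasting and growth factors, the 1 call of 15 tested by DESeq2 was Pthlh, a hormone-related peptide, at 18.3, 13.6, 10.3 and 7.98 CPM and then 25.5, 23.3, 43.3 and 11.8 CPM (1.05 ± 0.38 SE, DESeq2 adjusted p = 0.0443).

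Some genes known to respond to glucocorticoid hormones differed between the sizes, in both directions. Of 14 tested in a list made after values were seen, DESeq2 called Tsc22d3, Per1 and Sgk1 as lower and Lcn2 as higher. The shares of all genes were 0.515% and 0.573%. The median log2 fold change was -0.31, or -0.01 by DESeq2 without the 3 tumors of high muscle level, where it called 1 lower and 1 higher. Tsc22d3, also called GILZ, was at 179, 170, 176 and 300 CPM at 100 mm3 and at 52.8, 46.6, 89.1 and 95.2 CPM at 400 mm3 (log2 fold change -1.54 ± 0.28 SE, DESeq2 adjusted p = 5.77e-06). Per1, a clock gene that glucocorticoids also induce, was at 105, 118, 117 and 200 CPM and then at 49.4, 47.2, 81.3 and 70.5 CPM (-1.12 ± 0.25 SE, DESeq2 adjusted p = 0.000709). Sgk1, a serum- and glucocorticoid-regulated kinase, was at 164, 127, 103 and 300 CPM and then at 78.1, 72.8, 109 and 71.2 CPM (-1.07 ± 0.31 SE), with an overlap of 1 tumor. Lcn2, the iron-carrier binding protein lipocalin 2, which neutrophils also make, was at 5.59, 5.23, 1.91 and 1.46 CPM and then at 28.3, 24, 31.1 and 1.18 CPM (2.58 ± 0.83 SE, DESeq2 adjusted p = 0.054), again with the tumor of 464.68 mm3 below the smaller ones. The CT-26 cultures expressed Lcn2 too, with up to 2493 counts. The metallothionein genes Mt1 and Mt2 differed by 0.36 ± 0.33 SE and 0.16 ± 0.31 SE and were not called. The tumor of 145.86 mm3 was the highest for Tsc22d3, Per1, Sgk1 and Ccn2 alike.

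Fkbp5, a co-chaperone of the glucocorticoid receptor, differed by -0.49 ± 0.13 SE, without overlap. Klf2, a transcription factor of endothelium and T cells, was at 48.1, 39.7, 40.4 and 57.6 CPM and then at 20.7, 20.2, 21.5 and 28.1 CPM (-1.04 ± 0.15 SE, DESeq2 adjusted p = 5.63e-07). In the other direction, Cirbp, a cold-inducible RNA-binding protein, was at 21.4, 14.5, 17.5 and 13.2 CPM and then at 32.1, 33.4, 44.1 and 35.6 CPM (1.13 ± 0.17 SE, DESeq2 adjusted p = 4.57e-07), and Arntl, the clock gene also called Bmal1, was at 29.2 to 38.5 CPM and then at 43.3 to 59.6 CPM (0.57 ± 0.13 SE). The tumors of the 2 sizes did not overlap for Klf2, Cirbp or Arntl. Per1, Sgk1, Fkbp5, Klf2, Cirbp, Arntl, Ahr, Thbs2, Stab1, Ccl12, Ms4a4a, Msr1, Spp1, Lcn2, Mt1, Mt2, Cyp1b1, Tiparp, Car3, Ptgs2, Spsb1 and the C1q genes were chosen for mention after their values were seen.

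Several of the largest differences among non-overlapping calls belonged to none of these groups. Nrcam, a cell adhesion molecule of the nervous system, was at 2.42, 4.30, 2.06 and 2.41 CPM and then at 10.8, 10.1, 18.5 and 8.36 CPM (log2 fold change 2.09 ± 0.32 SE, DESeq2 adjusted p = 9.48e-08), and was also expressed in the cultures (1.84 FPKM). Hp, the haemoglobin-binding protein haptoglobin, was at 3.82, 2.57, 1.26 and 5.71 CPM and then at 6.92, 11.8, 6.63 and 17.2 CPM (1.67 ± 0.47 SE), and the cultures had at most 2 counts of it. Zc3h6, a zinc finger protein, and Sh3gl3, an endophilin, were higher by 1.28 ± 0.17 SE and 1.23 ± 0.25 SE. On the lower side, Tent5b differed by -1.69 ± 0.35 SE, Tnnt2, a troponin of heart muscle, by -1.56 ± 0.34 SE and Arl4d, a small GTPase, by -1.36 ± 0.33 SE. Tnnt2 was at 14.3, 5.55, 18.2 and 10.8 CPM at 100 mm3, an order unlike that of Acta1 and Ckm. The CT-26 cultures, without host tissue, expressed Tnnt2 too (6.15 FPKM).

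Of the genes called lower by DESeq2, 26 of 71 (36.6%) had at most 3 counts in each of the 3 CT-26 cultures, against 12 of 79 (15.2%) called higher and 6.37% of all genes tested. Without the tumor of 464.68 mm3 the shares in edgeR's calls were 61 of 152 (40.1%), 25 of 183 (13.7%) and 8.24%. Those 152 lower calls hold 19 muscle genes.

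The same step in Colon 26, 4 tumors of 100 mm3 and 4 of 400 mm3 of a second colon carcinoma model, is independent of these libraries. Of the 150 DESeq2 calls 136 were tested there, and 101 (74.3%) had the same sign, 52 of 70 higher and 49 of 66 lower. Of all genes 51.8% were higher in Colon 26. The share of all genes with the same sign in both models was not computed, so 74.3% cannot be called particular to the calls. The changes were smaller, with medians of 0.27 and -0.40 on the log2 scale against 1.27 and -1.20 for the higher and lower calls in CT-26. In Colon 26 itself edgeR called 2 of 15241 genes (0.0131%) and DESeq2 42 (0.297%), and edgeR's 2 were both lower, Spsb1 and Per1 (for Per1, log2 fold change -1.84 ± 0.18 SE, edgeR adjusted p = 0.0407). Tsc22d3 (-1.62 ± 0.30 SE), Ccn2 (-1.26 ± 0.19 SE), Tent5b (-1.86 ± 0.26 SE) and Sgk1 (-1.48 ± 0.22 SE) had the sign they had in CT-26 but edgeR adjusted p-values of 0.11 to 0.169.

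The neutrophil genes did not follow. The monocyte and neutrophil list had a median of -0.59 in Colon 26, with S100a9 at -0.74 ± 0.63 SE, S100a8 at -0.43 ± 0.49 SE, Cxcr2 at -1.33 ± 0.59 SE and Il1r2 at -1.16 ± 0.33 SE. The difference between the 2 models was tested as an interaction over the 16 tumors. edgeR called 0 genes, with a smallest adjusted p of 0.231, which S100a9, Cxcr2 and Il1r2 shared, and 1254 genes (7.8%) had an unadjusted p under 0.05. DESeq2 called 32 genes (0.19%), with adjusted p-values of 0.00386 for S100a9 and Il1r2, 0.0114 for S100a8 and Cxcr2, and 0.0406 for Cxcl5. Without the CT-26 tumor of 464.68 mm3 edgeR called 29. For the hypoxia list the Colon 26 median was 0.23 and for mast cells -0.97, and none of Ero1l, Ndrg1, Egln3, Mcpt4 and Cpa3 was called different between the models by either tool.

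The CT-26 tumors of 800 mm3 were set against the same 100 mm3 tumors, so the 2 comparisons share those controls and are given side by side only. S100a9 was 3.84 and S100a8 3.41 higher on the log2 scale at 800 than at 100 mm3, and Aldh3a1 1.46 higher, beside 4.24, 3.66 and 1.47 at 400 mm3. The 800 mm3 tumors varied widely in the first 2 genes. S100a9 had a mean of 26.6 FPKM with a standard deviation of 32.7, and S100a8 a mean of 9.82 FPKM with one of 11.6. Their edgeR adjusted p-values were 0.417 and 0.418. Tsc22d3 was at -1.30 and Ccn2 at -2.17, beside -1.54 and -2.07. Mrc1 was at -0.07 and Maf at -0.14, beside -1.28 and -1.05, while Folr2 was at -0.85 ± 0.17 SE beside -1.54. The hypoxia list had a median of 0.09 beside 0.80, and the mast cell list one of -0.22 beside -0.99. edgeR called 0 genes between 800 and 100 mm3, with 1610 (10.5%) at an unadjusted p under 0.05, and DESeq2 called 39 (0.262%). Whether these values differ between 400 and 800 mm3 was not tested.

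**Figure D5:**
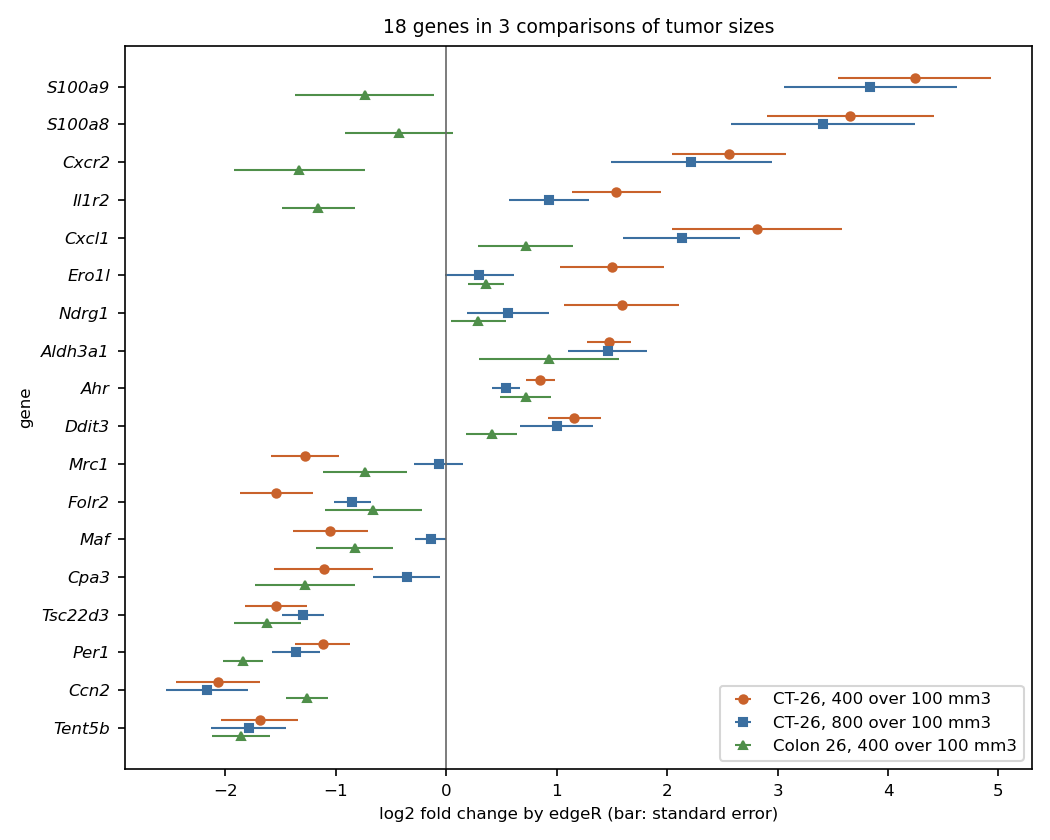
Log2 fold change by edgeR (horizontal axis, bars are the approximate SE derived from the F statistic) of 18 genes in CT-26 at 400 over 100 mm3 (orange), CT-26 at 800 over 100 mm3 (blue, sharing the 100 mm3 tumors) and Colon 26 at 400 over 100 mm3 (green). Tsc22d3, Per1, Ccn2 and Tent5b are below 0 in all 3, while S100a9, S100a8, Cxcr2 and Il1r2 are above 0 in CT-26 and below 0 in Colon 26.

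Whether counting used strand is not given in the sources used here. Exons of Ndrg1, Ddit3, Ppp1r15a, Folr2, Maf, Ahr, Ccn2, Col10a1, Zc3h6, Sh3gl3, Cxcl10, Cxcl11, Il1b, Slc2a1, Hk1, Arntl, Plin4, Stab1, Ckm, Foxp3, Tiparp, Mt2 and Xcl1 overlap those of another gene on the opposite strand in the annotation, so reads of such pairs may not have been told apart. Ddit3, Zc3h6, Foxp3, Spp1 and Top2a, like Ugt1a6a, also share exon positions with another gene on the same strand, which no strand setting would resolve.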

How the data were processed

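RNA-seq was measured in 8 CT-26 tumors, 4 of 100 mm3 and 4 of 400 mm3, with Colon 26 tumors, CT-26 tumors of 800 mm3 and CT-26 cultures for reference. Groups follow the size and model in the labels. With Array Studio, the authors counted reads per Ensembl (release 78) gene, and the deposited table holds estimated counts without normalization, of which 23.0% of the non-zero values were not whole. They also deposited FPKM, used here for levels in culture and for limma. The aligner, genome build and strand setting are not given in the sources used here. All columns of single libraries were mapped (0 unused). The submitters' processing notes name DESeq2 1.24.0.

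For testing, these estimates were rounded, since the planned test assumed whole counts. The main test of size was the quasi-likelihood test of edgeR 4.0.16 (R 4.3.3, with limma 3.58.1) using TMM normalization, edgeR's low-count filter and Benjamini-Hochberg adjustment, and a gene was called at adjusted p up to 0.1 when it also changed 2-fold or more. Only libraries of the comparison entered each fit. DESeq2 1.42.0 was run as an alternative. Other steps used Python 3.11.15 with pandas 2.3.3 and numpy 2.4.6. The fits were tested on simulated data first. Of 53431 identifiers, 52207 (97.7%) matched a GENCODE symbol on GRCm38, from which gene coordinates were taken. Promoters are from RefSeq (GRCm38.p6). Total counts were 22923606 to 30584263 per tumor, and at most 3 counts in every library was taken as the floor. Reads carry no molecular identifiers, so floors cover counting error only. Replicates differed by 19.65 to 73.9 times the variance of counting alone, so none were merged.

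The genes named are the 8 largest changes in each direction among calls with non-overlapping tumors and a mean count of at least 100, up to 4 called members per list by smallest p or else its first 2 tested, and markers of admixture. As edgeR made no call, the rule was applied to DESeq2's calls, a choice made after the results were seen. Where a list had no call, its median is given and its first members are not always named. The comparison, genes and lists were chosen with earlier results of these data known, and 5 lists (glucocorticoid, clock, aryl hydrocarbon receptor, resident-type macrophage, YAP and TEAD) were added after values were seen. The 15 clock genes tested had a median log2 fold change of 0.25, with 2 called lower by DESeq2. Alternatives were DESeq2, 2 other normalizations, 2 other filters, a stricter adjusted p (0.05), calls without the fold criterion, limma on FPKM (pseudocounts 1 and 0.1, log2 scale), fits with more tumors, and omission of each tumor.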

Additional observations from a re-analysis of the deposited data

Results flagged for a closer look

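Each value below is that of a tumor far from the other 3 of its size by Dixon's test. Of 206 groups of 4 tested 21 stood out. The nominal rate of about 1 in 20 assumes independent, normally distributed values. These genes and sums share tumors, and some were chosen after values were seen, so the 21 cannot be compared with that rate. The tumor of 464.68 mm3 was the one that stood apart in 11. There, the summed level was 703 CPM for skeletal muscle genes (112 to 135 CPM in the other 400 mm3 tumors) and 124 CPM for mast cell genes (64.8 to 70.7 CPM), with Acta1 at 101 CPM, Ckm at 33.6 CPM, Car3 at 37 CPM, Mcpt4 at 14.2 CPM, Cpa3 at 20.5 CPM and Klf2 at 28.1 CPM above the others. Il1b at 11.4 CPM (42.8 to 45.3 CPM in the others), Hk1 at 140 CPM (208 to 220 CPM) and Dcn at 188 CPM (372 to 376 CPM) were below them.

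In the tumor of 145.86 mm3 Tsc22d3 was at 300 CPM (170 to 179 CPM in the other 100 mm3 tumors) and Per1 at 200 CPM (105 to 118 CPM). In that of 106.18 mm3 Nrcam was at 4.3 CPM (2.06 to 2.42 CPM), C1qb at 399 CPM (245 to 269 CPM) and Msr1 at 247 CPM (142 to 160 CPM). In that of 103.33 mm3 Dcn was at 89.6 CPM, low against 192 to 212 CPM, the Schwann cell list summed to 4.93 CPM, low against 7.32 to 7.48 CPM, and the Nrf2 list to 893 CPM, high against 632 to 671 CPM. In the tumor of 403.89 mm3 Stab1 was at 36.5 CPM (111 to 123 CPM in the others), and in that of 400.47 mm3 interferon-stimulated genes summed to 5840 CPM (2900 to 3390 CPM).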

How the results depend on the processing

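No paired analysis was possible because the labels carry no replicate numbers. For CT-26 at 400 over 100 mm3 edgeR called 0 genes as reported and with other normalizations, an adjusted p of 0.05, no minimum fold, limma on FPKM and, added after seeing the data, limma-voom and 2 other quasi-likelihood settings. It called 6 with no filter on low counts, 64 with at least 10 counts in every library, 179 in a fit of all 12 CT-26 tumors and 303 in one of all 24 tumors, and DESeq2 called 150. Leaving out 1 tumor gave 0 to 335 genes by edgeR (335 without that of 464.68 mm3 and 144 without that of 106.18 mm3) and 50 to 425 by DESeq2 (120, 180, 131 and 50 without the 100 mm3 tumors and 80, 118, 50 and 425 without the 400 mm3 tumors, each in the order of volumes in the report). Without the 3 tumors of high muscle level edgeR called 60 and DESeq2 181, both added after seeing the data. The cause of these shifts was not tested.

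Colon 26 had 2 calls, 42 by DESeq2, 6 without a filter, 5 with at least 10 counts and 0 to 391 with 1 tumor left out, the most without the Colon 26 tumor of 400 mm3 numbered 1. The 800 over 100 mm3 comparison had 0 calls, 39 by DESeq2, 1 by limma on log2(FPKM + 0.1) and 0 to 2 with 1 tumor left out (2 without that of 145.86 mm3). The interaction had 0, 32 by DESeq2 and 0 to 29 with 1 tumor left out (29 without that of 464.68 mm3). With no gene called by edgeR at the outset, a lost call could not occur, so only direction is informative for single genes. Of 143 genes tabulated, 32 took both signs as single tumors were left out. Of those named, Car3 (-0.27) spanned -6.14 to 0.65 by edgeR, and by DESeq2 was 0.66 without the tumor of 145.86 mm3 and 0.15, 0.14 and 0.15 without those of 405.58, 400.47 and 403.89 mm3. Mki67 (0.07) spanned -0.03 to 0.13, with -0.03 by DESeq2 without the tumor of 464.68 mm3, and was -0.06 (edgeR) and -0.03 (DESeq2) without the 3 tumors of high muscle level. Mt2 (0.16) spanned -0.02 to 0.40, with -0.02 by DESeq2 without the tumor of 136.03 mm3 or of 403.89 mm3, and Cyp1b1 (1.1) was -0.04 by limma-voom. Of the alternative values of list medians 34 moved by more than the spread between tumors and 1106 did not, and cytotoxic and NK genes changed sign without the tumor of 106.18 mm3 (0.42). Low genes such as Cxcr2 and S100a8 rest on few counts per library at 100 mm3.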
